A study of Cardamine hirsuta with 24 samples.

Results

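The comparison was between Mock-treated seedlings of *Cardamine hirsuta*, a crucifer with complex leaves, harvested at 4 h and at 2 h. Its members were all 3 libraries of the group 4h Mock and all 3 of the group 2h Mock, 6 of the 24 in the series, with every gene row of their count tables. 4h Mock and 2h Mock seedlings were both of the Oxford strain, 12 days old, and carried RCOp::LhG4:GR; Op::ChCUC1:Venus, which lets dexamethasone switch on a Venus-tagged *ChCUC1* (CUP-SHAPED COTYLEDON1, a NAC transcription factor of organ boundaries). Both stood in liquid MS medium with 0.1% DMSO and no dexamethasone, so that the transgene was present but not induced. The 4h Dex and 2h Dex groups, 3 libraries each, were of the same line, age and medium with 10 µM dexamethasone, and enter in 1 comparison. Each library came from the dissected shoot apices of a pool of 20 seedlings, and the study describes the 3 replicates of a group as independent. The comparison asks which transcripts of the shoot apex differed between the 4 h and 2 h control harvests, the background on which an induced change at these times is read. The RCO promoter is active in spots on the margins of young leaves, and the Venus fusion and the resident *ChCUC1* are counted on 1 gene model.

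The sources used here do not give the hour of day at harvest, so time in the solution and time of day cannot be told apart. In plants, transcripts for light-harvesting proteins and outputs of the circadian clock swing over the day. Transcripts of jasmonate synthesis rise within minutes of wounding and then decay, whereas chaperones of the endoplasmic reticulum follow the load of unfolded protein in the secretory pathway.

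The libraries held 15984336 to 18931872 gene counts in 4h Mock and 19501178 to 20115587 in 2h Mock, over 29458 gene rows. Reads outside genes made up 9.73 to 15.8% in 4h Mock, with the highest share in replicate 3, and 7.85 to 8.31% in 2h Mock. Levels are given as CPM (read counts scaled to a common library size), for replicates 1, 2 and 3 in turn, and are not scaled by gene length. On the first principal component (58.5% of the variance over the 6 libraries), 4h Mock replicates took the scores 55.2, 34.4 and 85.7 and 2h Mock replicates -10.8, -90.5 and -74.0, so that 2h Mock replicate 1 stood apart from the others of its group, towards 4h Mock. 4h Mock replicate 3 was set apart on the second component, at -68.3.

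2h Mock replicate 3 was close to a weighted sum of replicates 1 and 2. Among 926 genes that differed over 2-fold between 2h Mock replicates 1 and 2, replicate 3 lay between them in 99.8%. A sum of 35% replicate 1 and 65% replicate 2 left a chi-square per gene of 1.40 over 19878 genes, where counting noise alone gives a value near 1, against 2.00 to 238 for the other 23 libraries of the series and 49.1 to 110.5 for those of 4h Mock. The next lowest values were those of 8h Mock (3.45, 2.70 and 2.00) and 8h Dex replicate 3 (2.35). 8h Mock replicates 1 and 2 fitted best as 100% of replicate 3. Only 6, 0 and 22 genes differed over 2-fold between the other 2 libraries there, too few to show the trait. 8h Dex replicate 3 fitted best at 60% replicate 1 and 40% replicate 2, with 99.7% of 1482 genes between. The trait was thus not peculiar to 2h Mock replicate 3. The sources used here do not say how this came about, and it was not tested. 2h Mock replicate 3 therefore added little that the other two did not hold, so most adjusted p-values are followed below by the value without it.

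**Figure D1:**
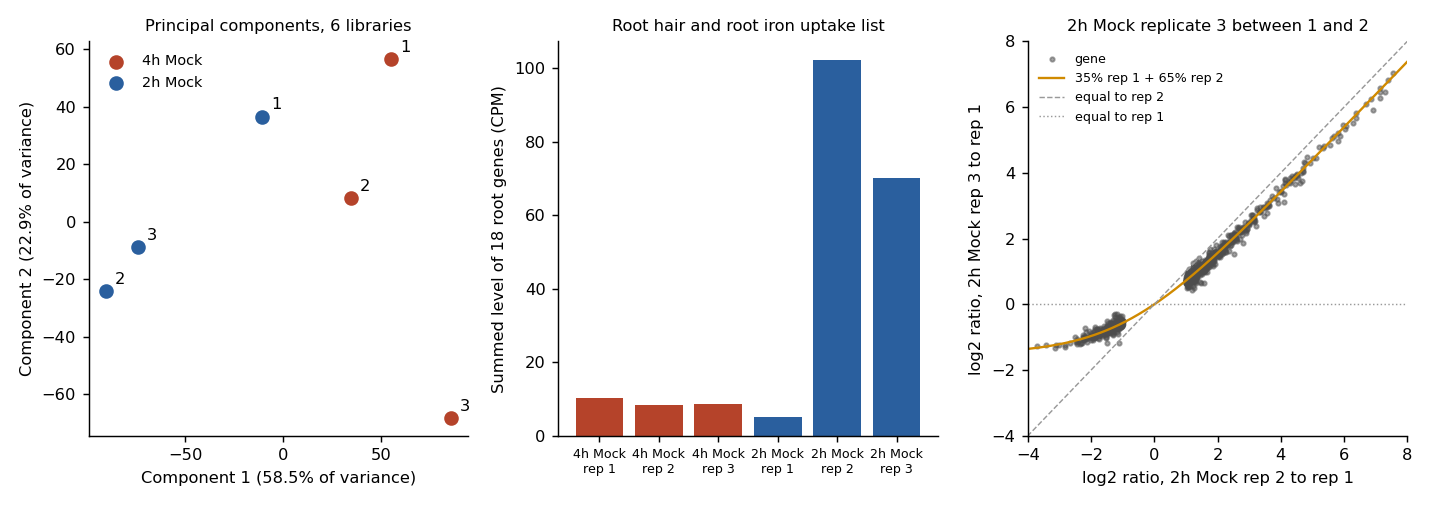
Left, scores of the 6 libraries on the first 2 principal components of log2 CPM, numbered by replicate. Middle, summed level in CPM of 18 root hair and root iron uptake genes in each library, at 10.2 or less in 4h Mock and in 2h Mock replicate 1, and at 102.2 and 70.1 in 2h Mock replicates 2 and 3. Right, 926 genes that differed over 2-fold between 2h Mock replicates 1 and 2, as log2 ratios to replicate 1: replicate 3 follows the line of a 35% and 65% sum.

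Root transcripts differed among the 2h Mock libraries. The 18 tested genes of a list for root hairs and root iron uptake summed to 10.2, 8.27 and 8.60 CPM in 4h Mock, against 5.17, 102.2 and 70.1 CPM in 2h Mock. 2h Mock replicate 1 thus held as little of these transcripts as the 4h Mock libraries, and 16 of the 18 genes had under 25% of the level there that they had on average in replicates 2 and 3. *GH9C1*, *EXPA18*, *RHS6*, *MRH4*, *IRT2*, *RHS18* and *MRH6* had 0 counts in all 4h Mock libraries. Seed maturation genes, 8 in number, summed to 20.8, 7.57 and 6.20 CPM in 4h Mock and to 7.75, 24.7 and 19.4 CPM in 2h Mock. Among shoot apex markers *KNAT1*, a homeobox gene of the meristem, was at 16.9, 19.4 and 15.1 CPM in 4h Mock and 22.1, 17.1 and 19.7 CPM in 2h Mock, and *HAM3*, a GRAS gene of the meristem, at 70.9, 46.6 and 32.4 CPM in 4h Mock and 79.9, 58.6 and 61.8 CPM in 2h Mock. *KNAT1* and *HAM3* were not called (edgeR adjusted p = 0.624 and 0.27). Of the other markers chosen for shoot apex and young leaf, *PLT3*, *LHCB2.1*, *LHCB4.2* and *PSBS* were called lower. *ChCUC1* was not called, and the values of these markers are given below. In bulk samples, fewer cells of a type and less RNA per cell cannot be told apart.

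Of 21689 genes tested, 1365 were called higher (6.29%) and 1830 lower (8.44%) in 4h Mock than in 2h Mock, at an adjusted p under 0.05 (quasi-likelihood test of edgeR, adjusted by Benjamini-Hochberg) and a fold change over 1.5. The decreases were larger. Over 4-fold changes numbered 105 among genes called higher and 692 among genes called lower, and the median log2 fold change was 0.90 and -1.39 for genes called higher and lower. The median over all genes tested was -0.01. Of the 1830 genes called lower, 418 (22.8%) had in 2h Mock replicate 1 under 25% of their mean in replicates 2 and 3, against 3.43% of all genes tested, and these took 403 of the 692 over 4-fold decreases. These 418 were picked by the same pattern that described the root list above, and the part of root transcripts in them was not tested. In 799 of the 1830, replicate 1 held 75% or more of the level in the other two. Without 2h Mock replicate 3, 1822 genes were called (704 higher and 1118 lower), and without 2h Mock replicate 2 or 4h Mock replicate 3 there were 1555 and 1676. Without both 2h Mock replicate 1 and 4h Mock replicate 3, 605 genes were called higher and 1511 lower. A fit to the 6 libraries alone called 729.

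The gene with the smallest p-value was *NPC4*, a non-specific phospholipase C that releases phosphate from membrane lipids in phosphate-starved plants. Its level was 1.75, 1.85 and 2.27 CPM in 4h Mock, against 23.5, 28.8 and 27.0 CPM in 2h Mock. This was 13.5-fold lower (log2 fold change -3.76 ± 0.18 (SE), edgeR adjusted p = 1.10e-10, or 2.02e-09 without 2h Mock replicate 3), with a spread within each group far below the gap. *ANAC038*, a NAC transcription factor, was nearly lost, at 0.062, 0.38 and 0.13 CPM in 4h Mock against 6.12, 6.20 and 5.604 CPM in 2h Mock (log2 fold change -4.91 ± 0.44, edgeR adjusted p = 2.48e-06, or 1.83e-05). *AZG1*, a purine permease that in *A. thaliana* also carries cytokinin, was at 6.49, 9.16 and 10.3 CPM in 4h Mock and 23.9, 26.2 and 23.4 CPM in 2h Mock. For these 3 genes 2h Mock replicate 1 was as high as replicates 2 and 3 or nearly so. That the groups did not overlap was a condition of naming genes by p-value, here and for the decreases and increases that follow.

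In several of the other decreases named by the same rule, 2h Mock replicate 1 was the lowest of its group. *AHL19*, an AT-hook protein of the nucleus, was at 0.25, 0.25 and 0.47 CPM in 4h Mock and 5.17, 21.2 and 14.6 CPM in 2h Mock (log2 fold change -5.38 ± 0.64, edgeR adjusted p = 3.20e-05, or 1.72e-04). *CCD8*, a carotenoid cleavage dioxygenase of strigolactone synthesis, was at 0.94, 0.57 and 0.33 CPM in 4h Mock and 5.73, 11.03 and 9.73 CPM in 2h Mock, 14.2-fold lower. CARHR099390, the counterpart of AT3G23430, was at 16.9, 21.1 and 12.2 CPM in 4h Mock and 53.4, 86.8 and 72.0 CPM in 2h Mock. In each of them the lowest 2h Mock library was above every 4h Mock library, as the rule of naming required. The remaining paired genes named by the same rule were CARHR243700 (AT4G35380), 6.50-fold lower, CARHR091560 (AT3G16350, a MYB family factor), 7.86-fold lower, CARHR033110 (AT1G33700), 11.3-fold lower, CARHR046330 (AT1G64590, a putative short-chain dehydrogenase), 56.5-fold lower, CARHR199110 (AT5G14230), 3.49-fold lower, and CARHR085840 (AT3G11280), 3.09-fold lower. CARHR085840 was the steadiest of them in 2h Mock, at 28.5, 25.9 and 21.1 CPM in 4h Mock and 79.5, 76.3 and 77.6 CPM in 2h Mock. Of genes without a named counterpart, CARHR121450 was at 0.19, 0.064 and 0.4 CPM in 4h Mock and 8.31, 9.85 and 7.82 CPM in 2h Mock, and CARHR108960 at 2.56, 4.1997 and 1.60 CPM in 4h Mock and 37.5, 77.6 and 61.4 CPM in 2h Mock. All of these decreases kept an edgeR adjusted p under 0.001 without 2h Mock replicate 3.

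The named gene with a counterpart that had the smallest p-value among increases was *COR27*. This gene, which in *A. thaliana* encodes a small protein that represses clock genes and takes part in light and cold responses, was at 24.2, 23.2 and 38.2 CPM in 4h Mock against 4.27, 5.35 and 5.90 CPM in 2h Mock, 5.50-fold higher (log2 fold change 2.46 ± 0.26, edgeR adjusted p = 7.54e-06, or 8.33e-05 without 2h Mock replicate 3). *PGK*, a phosphoglycerate kinase of glycolysis, was at 1596, 1231 and 1401 CPM in 4h Mock and 486, 384 and 429 CPM in 2h Mock, 3.25-fold higher (edgeR adjusted p = 2.08e-04, or 0.00206). *OEP16*, a channel protein of the outer plastid envelope, was at 109.9, 129 and 289.7 CPM in 4h Mock and 54.2, 55.2 and 54.6 CPM in 2h Mock, with 4h Mock replicate 3 well above the other two. In each of these 3 genes the 2h Mock libraries lay close together. They lay below every 4h Mock library, as the rule of naming required.

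Other genes named as higher were CARHR244880 (AT4G36580, an AAA-type ATPase), 3.05-fold, and CARHR077070 (AT3G03060, a P-loop nucleoside triphosphate hydrolase), 4.64-fold. CARHR077070 had almost the same level in each 2h Mock library, 20.2, 20.2 and 19.96 CPM, against 112, 85.2 and 83.3 CPM in 4h Mock. CARHR078830 (AT3G04620, an Alba nucleic acid-binding protein) was 6.22-fold higher, and CARHR252500 (AT4G05030, a putative copper transport protein) was 22.5-fold higher, at 18.4, 10.4 and 19.2 CPM in 4h Mock and 1.29, 0.28 and 0.59 CPM in 2h Mock. Smaller increases were found for CARHR103900 (AT2G06925, 2.26-fold), CARHR268760 (AT5G55450, 1.98-fold), CARHR276510 (AT5G62720, 1.94-fold) and CARHR140750 (AT1G33720, 1.796-fold). Of genes without a named counterpart, CARHR112650 was at 1522, 1679 and 2189.9 CPM in 4h Mock and 501, 688 and 619 CPM in 2h Mock, and CARHR134170 at 39.1, 35.0 and 28.5 CPM in 4h Mock and 13.8, 15.3 and 14.9 CPM in 2h Mock. These increases all kept an edgeR adjusted p under 0.05 whichever of the 6 libraries was left out.

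**Figure D2:**
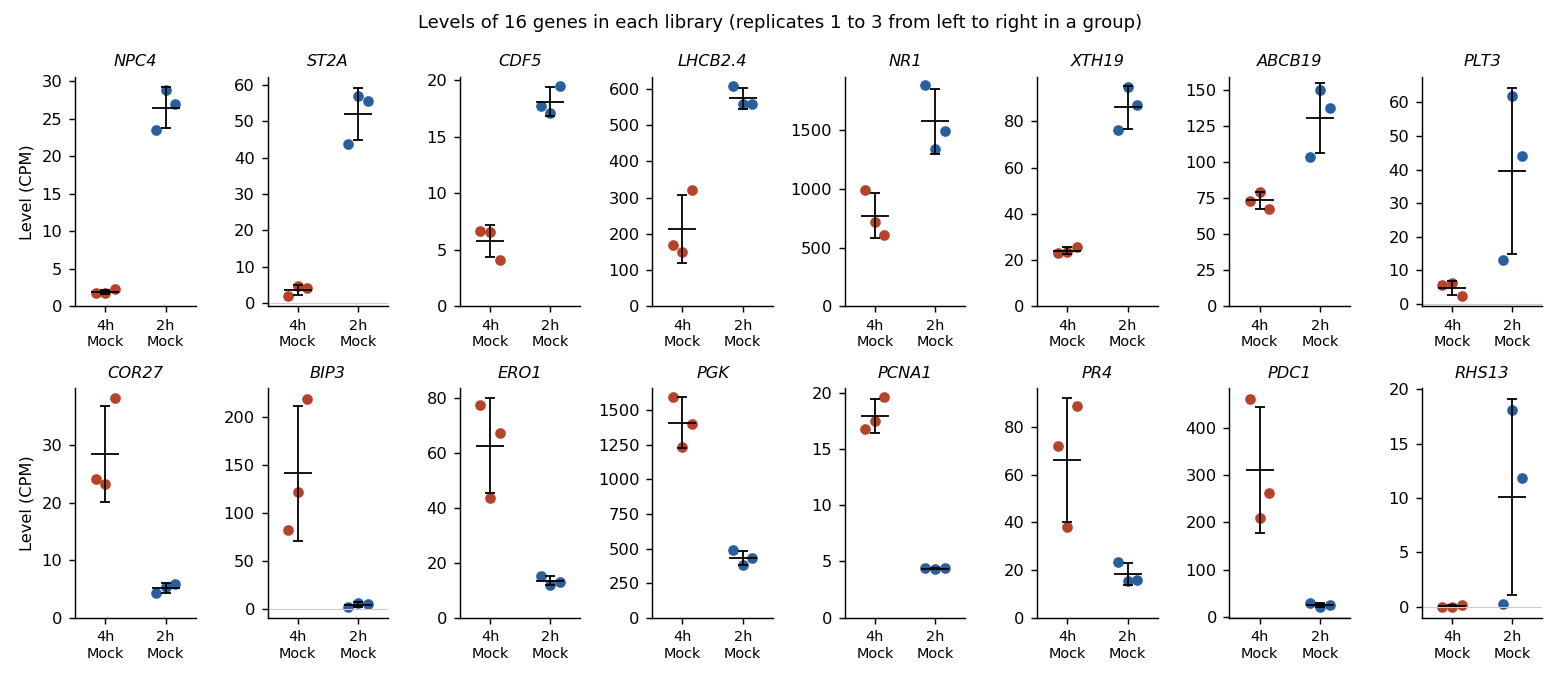
Levels in CPM of 16 genes, one panel each, with a point for each library of 4h Mock and of 2h Mock, a bar at the mean of 3 libraries and whiskers of 1 SD. In *NPC4*, *ST2A*, *CDF5* and *XTH19* all 4h Mock points lie below all 2h Mock points and in *COR27*, *BIP3*, *PGK* and *PCNA1* above them, while *RHS13* was near 0 in 4h Mock and in 2h Mock replicate 1.

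For gene groups, 26 lists with 423 tested genes were described by their calls. Of the genes tested, 3518 (16.2%) could be given an *A. thaliana* counterpart, and 325 of the 423 were paired only through the study's own expression tables, so a list's count is no independent evidence of its direction. Among those 3518 genes 4.66% were called higher and 11.9% lower, with a median log2 fold change of -0.09. These 2 shares are the background for each list count given below. The bar chart gives the calls and medians of all 26 lists.

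**Figure D3:**
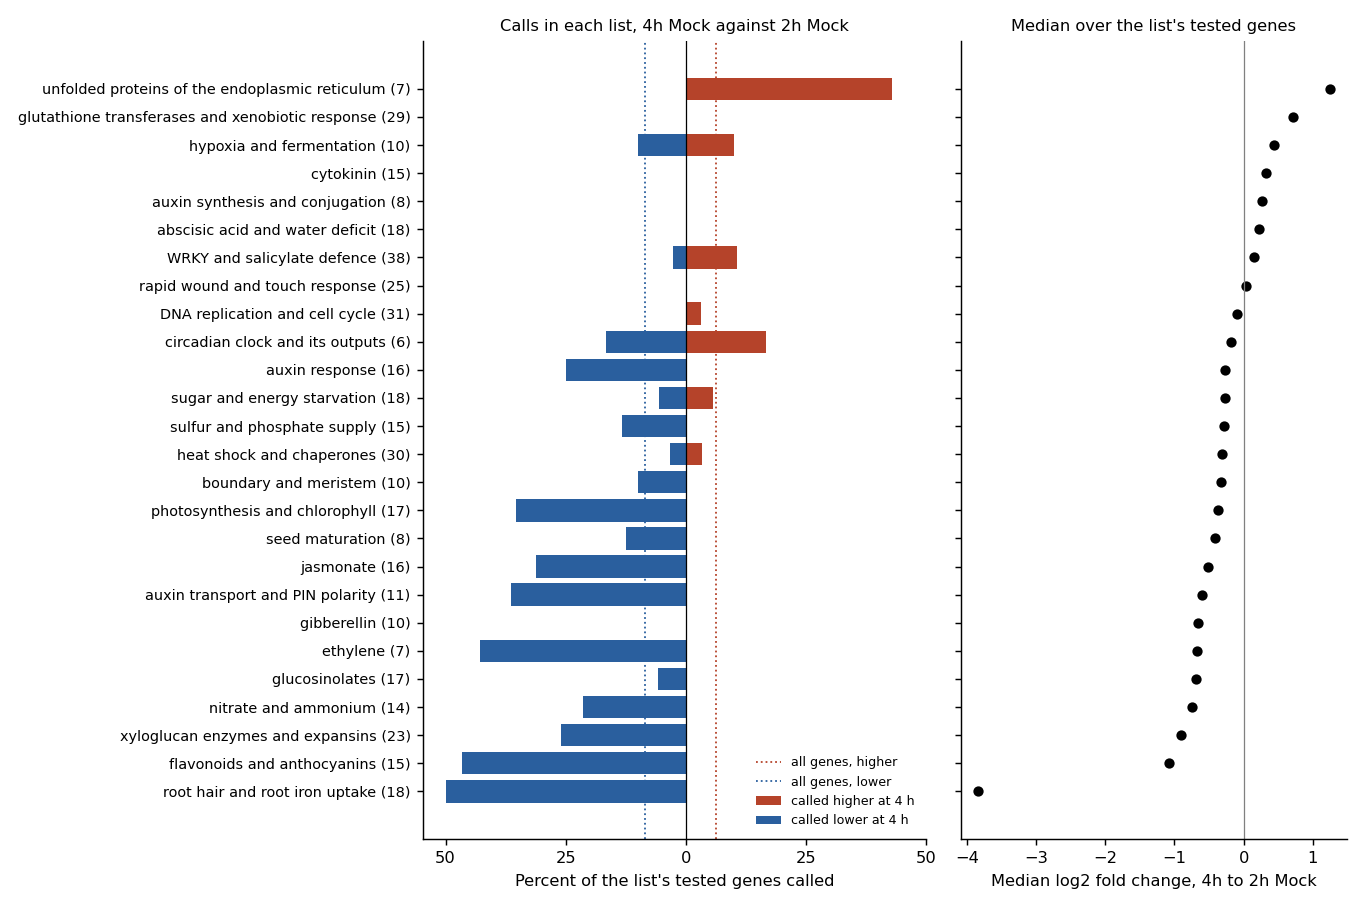
Left, percent of each list's tested genes called higher (right of 0) and lower (left of 0) in 4h Mock than in 2h Mock, with the number tested in brackets and the shares over all genes (6.29% and 8.44%) dotted. Among genes with a counterpart, to which all list members belong, the shares were 4.66% and 11.9% (not drawn). Right, median log2 fold change over the list's tested genes, with genes at 0 counts in 4h Mock set at their bound. The median runs from -3.84 for the root list to 1.25 for the list of unfolded proteins of the endoplasmic reticulum.

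Of 17 tested genes of photosynthesis and chlorophyll, 6 were called lower and 0 higher (median log2 fold change -0.37). The whole list summed to 18694, 14868 and 22774 CPM in 4h Mock and to 18660, 16105 and 16052 CPM in 2h Mock. Its sum thus overlapped between the groups and was highest in 4h Mock replicate 3. *LHCB2.4*, a light-harvesting chlorophyll-binding protein of photosystem II, was at 169.8, 149.8 and 322 CPM in 4h Mock against 608, 558 and 559 CPM in 2h Mock, 2.69-fold lower (edgeR adjusted p = 9.83e-04, or 0.00457 without 2h Mock replicate 3). *LHCB2.1*, of the same family, was at 714, 894 and 1488 CPM in 4h Mock and 2331, 2408 and 2300.5 CPM in 2h Mock, and *LHCB4.2* (CP29) at 555, 519 and 560.3 CPM in 4h Mock and 1097, 928 and 933 CPM in 2h Mock. *STN7*, the kinase that phosphorylates light-harvesting proteins, was 2.01-fold lower (edgeR adjusted p = 0.00202, or 0.0083). *GLK2*, a transcription factor that activates chloroplast genes, was 2.17-fold lower (edgeR adjusted p = 0.00292, or 0.0122). The sixth, *PSBS*, which serves the dissipation of excess light, was 1.54-fold lower and lost its call, by the adjusted p or by the fold, without 2h Mock replicate 3 (edgeR adjusted p = 0.0508), 4h Mock replicate 1 or 2h Mock replicate 1. No member of this list had in 2h Mock replicate 1 under 25% of its mean in the other two.

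Among 6 clock genes and outputs, *COR27* was called higher and *CDF5* lower. *CDF5*, a DOF factor that delays flowering under clock control, was at 6.68, 6.55 and 4.13 CPM in 4h Mock and 17.7, 17.1 and 19.5 CPM in 2h Mock, 3.13-fold lower (edgeR adjusted p = 7.71e-05, or 6.58e-04). The other 4 were not called. *BOA*, a GARP factor of the clock, was at 4.49, 3.25 and 4.47 CPM in 4h Mock and 2.41, 2.75 and 2.65 CPM in 2h Mock (edgeR adjusted p = 0.0658). *RVE1*, a MYB-like factor that links the clock to auxin, was at 15.66, 5.09 and 2.93 CPM in 4h Mock and 24.3, 15.72 and 17.1 CPM in 2h Mock (edgeR adjusted p = 0.0894), and its relative *RVE2* at 81.2, 23.5 and 36.4 CPM in 4h Mock and 103, 64.7 and 75.6 CPM in 2h Mock (edgeR adjusted p = 0.118). For *COR28*, the paralogue of *COR27*, the groups overlapped, at 68.0, 30.5 and 34.1 CPM in 4h Mock and 24.5, 39.9 and 35.5 CPM in 2h Mock (edgeR adjusted p = 0.629). In *RVE1* and *RVE2* 4h Mock replicate 1 was the highest of its group, and without it both were called (edgeR adjusted p = 0.00717 and 0.00576).

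The list of unfolded proteins of the endoplasmic reticulum had 3 of its 7 genes called higher and 0 lower (median log2 fold change 1.25). *BIP3*, the stress-induced BiP chaperone of the endoplasmic reticulum, was at 82.5, 122 and 218 CPM in 4h Mock against 1.91, 6.82 and 5.41 CPM in 2h Mock, 29.7-fold higher (log2 fold change 4.89 ± 1.14, edgeR adjusted p = 0.00709, or 0.0342 without 2h Mock replicate 3). *ERO1*, the oxidase that drives disulphide formation, was at 77.2, 43.4 and 67.0 CPM in 4h Mock and 15.3, 12.0 and 12.9 CPM in 2h Mock, 4.67-fold higher (edgeR adjusted p = 0.00477, or 0.0252). *DER1*, a derlin of the degradation pathway, was 2.37-fold higher but kept its call only without 4h Mock replicate 2, with edgeR adjusted p-values from 0.0403 to 0.13 as single libraries were left out. *BI-1*, an inhibitor of cell death in the same membrane, was at 504, 294 and 441 CPM in 4h Mock and 237, 127 and 163 CPM in 2h Mock and just missed the threshold (edgeR adjusted p = 0.0554). In 5 of the 7 genes all 4h Mock libraries were above all 2h Mock libraries, as in 16.8% of all genes tested. Without 2h Mock replicate 3, 2 of the 7 were called.

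Of 30 heat shock and chaperone genes, 1 was called higher and 1 lower. *TIM17-1*, a subunit of the mitochondrial import channel, was at 132, 80.0 and 130.2 CPM in 4h Mock and 36.3, 14.5 and 19.3 CPM in 2h Mock, 4.88-fold higher (edgeR adjusted p = 0.0138, or 0.064 without 2h Mock replicate 3). *HSFA7B*, a heat stress factor, was at 0.69, 0.57 and 0.53 CPM in 4h Mock and 1.01, 17.9 and 12.0 CPM in 2h Mock and thus followed the root list in 2h Mock replicate 1 (edgeR adjusted p = 0.0107, or 0.0318). The whole heat list summed to 5712, 2004 and 2532 CPM in 4h Mock and to 4725, 1764 and 2656 CPM in 2h Mock, so that replicate 1 was the highest in both groups. Among 10 genes of hypoxia and fermentation, *PDC1* was called higher and *ACO1* lower. *PDC1*, the pyruvate decarboxylase of ethanol fermentation, was at 461, 209 and 262 CPM in 4h Mock against 29.8, 20.7 and 25.1 CPM in 2h Mock, 12.3-fold higher (edgeR adjusted p = 0.0281). The groups lay far apart, but the call was lost on leaving out any 1 library other than 4h Mock replicate 2 (edgeR adjusted p = 0.0944 without 2h Mock replicate 3, and up to 0.106).

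Of 16 jasmonate genes, 5 were called lower in 4h Mock and 0 higher (median log2 fold change -0.51). *ST2A*, a sulfotransferase that inactivates 12-hydroxyjasmonate, was at 1.93, 4.58 and 4.07 CPM in 4h Mock against 43.9, 57.0 and 55.5 CPM in 2h Mock, 14.8-fold lower (log2 fold change -3.89 ± 0.67, edgeR adjusted p = 8.83e-04, or 0.00365 without 2h Mock replicate 3). *LOX2*, the plastid lipoxygenase that opens jasmonate synthesis, was at 52.3, 127 and 82.7 CPM in 4h Mock and 341, 439.5 and 396 CPM in 2h Mock, 4.49-fold lower (edgeR adjusted p = 0.0118, or 0.0339). The enzymes of the next steps, *AOS* and *AOC1*, were 2.04-fold and 3.39-fold lower (edgeR adjusted p = 0.0158 and 0.0127, or 0.0483 and 0.0388). In these 4 genes all 2h Mock libraries, replicate 1 included, were above all 4h Mock libraries. The same held for 16.9% of all genes tested and for 1508 of the 1830 genes called lower. *CYP94B1*, which oxidises active jasmonate, was at 3.74, 2.29 and 6.07 CPM in 4h Mock and 4.89, 28.8 and 20.2 CPM in 2h Mock, with the low replicate 1 of the root genes (edgeR adjusted p = 0.0195, or 0.059), and lost its call in 4 of the 6 fits that each left out 1 library. Without 2h Mock replicate 2 only 2 of the 16 were called lower, and without 4h Mock replicate 2 only 3.

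In the ethylene list 3 of 7 genes were called lower and 0 higher. *ACO1*, an oxidase of the last step of ethylene synthesis, was at 6.30, 7.64 and 10.7 CPM in 4h Mock and 27.5, 13.2 and 17.99 CPM in 2h Mock, 2.38-fold lower (edgeR adjusted p = 0.00404, or 0.0125). *ERF14* and *EDF3*, transcription factors of the ethylene response, were 5.12-fold and 2.11-fold lower (edgeR adjusted p = 0.0292 and 0.0394, or 0.0462 and 0.098 without 2h Mock replicate 3). Of the 6 fits that each left out 1 library, *EDF3* kept its call in 1 and *ERF14* in 3. Without 4h Mock replicate 2 or 4h Mock replicate 3 only 1 of the list was called. Of 38 WRKY and salicylate defence genes, 4 were called higher and 1 lower (median log2 fold change 0.15). Among all genes with a counterpart the shares were 4.66% and 11.9%. *BG3*, a beta-1,3-glucanase, was at 149, 324 and 283 CPM in 4h Mock and 100.9, 102 and 92.7 CPM in 2h Mock, 2.56-fold higher (edgeR adjusted p = 0.00225, or 0.0156). *PR4*, a hevein-like protein, was at 72.2, 37.9 and 88.8 CPM in 4h Mock and 23.5, 15.3 and 15.8 CPM in 2h Mock (edgeR adjusted p = 0.00857, or 0.0437). *PR1*, the classic salicylate marker, was called 5.23-fold higher (edgeR adjusted p = 0.00905, or 0.0483). Its levels were low, at 1.19, 5.92 and 1.53 CPM in 4h Mock and 0.79, 0.47 and 0.39 CPM in 2h Mock. *FRK1*, a receptor kinase induced by microbial patterns, was at 44.2, 170.1 and 143 CPM in 4h Mock and 33.3, 33.9 and 31.4 CPM in 2h Mock. Replicate 1 of 4h Mock was the lowest of its group for *BG3*, *PR1* and *FRK1*. *FRK1* lost its call without 2h Mock replicate 3 (edgeR adjusted p = 0.0549), 2h Mock replicate 2 or 4h Mock replicate 3, and *PR1* without 4h Mock replicate 2 (edgeR adjusted p = 0.0765). *WRKY23*, which acts with auxin in roots and embryos, was 2.80-fold lower, at 17.2, 9.99 and 10.0 CPM in 4h Mock and 24.4, 42.8 and 37.2 CPM in 2h Mock.

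Of 15 flavonoid and anthocyanin genes, 7 were called lower and 0 higher, with a median log2 fold change of -1.08. *PAL2*, the phenylalanine ammonia-lyase at the entry of the pathway, was at 64.3, 29.8 and 27.6 CPM in 4h Mock and 131, 84.5 and 95.1 CPM in 2h Mock, 2.55-fold lower (edgeR adjusted p = 0.00372, or 0.0107 without 2h Mock replicate 3). *DFR*, dihydroflavonol reductase on the anthocyanin branch, was at 0.81, 1.27 and 2.47 CPM in 4h Mock and 7.81, 10.2 and 9.63 CPM in 2h Mock, 6.09-fold lower (edgeR adjusted p = 0.0173, or 0.0473). *TT6*, flavanone hydroxylase, was 1.68-fold lower (edgeR adjusted p = 0.00693, or 0.0234). Chalcone synthase (*TT4*), the transferases *UF3GT* and *GSTF12* and the regulator *MYB12* were called with all libraries and lost their calls without 2h Mock replicate 3 (edgeR adjusted p = 0.0658, 0.0551, 0.0944 and 0.114). The count of 7 became 3 without that library, 2 without 4h Mock replicate 1 and 2 without 2h Mock replicate 2. *MYB12* alone overlapped between groups, with 2h Mock replicate 1 at the level of 4h Mock. Of all 1830 genes called lower, 1508 had groups that did not overlap.

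Among 14 genes of nitrate and ammonium use, 3 were called lower and 0 higher (median log2 fold change -0.75), against 11.9% and 4.66% of genes with a counterpart. *NR1*, a nitrate reductase, was at 989, 722 and 610.1 CPM in 4h Mock and 1886, 1342 and 1493 CPM in 2h Mock, 2.03-fold lower (edgeR adjusted p = 0.00179, or 0.00604). The second reductase gene, *NR2*, at 815, 892 and 704 CPM in 4h Mock and 1252, 1098 and 1143 CPM in 2h Mock, passed the adjusted threshold (edgeR adjusted p = 0.0191) but not the fold of 1.5. *NRT1.5*, a nitrate transporter that loads the root xylem in *A. thaliana*, was at 1.25, 5.09 and 3.93 CPM in 4h Mock and 34.4, 69.4 and 58.6 CPM in 2h Mock, 15.8-fold lower (edgeR adjusted p = 0.00144, or 0.00548). *NRT2.6*, a high-affinity nitrate transporter, was uneven in 2h Mock, at 0.37, 0.32 and 0.27 CPM in 4h Mock and 7.92, 0.43 and 3.34 CPM in 2h Mock, and its call was lost without 2h Mock replicate 1 or 4h Mock replicate 3, with edgeR adjusted p-values up to 0.0663. In the list of sulfur and phosphate supply, 2 of 15 genes were called lower, a share near the 11.9% among genes with a counterpart. These were *NPC4* and *PHO1;H1*, a phosphate exporter. *PHO1;H1* was 1.66-fold lower with overlapping groups (edgeR adjusted p = 0.042, or 0.0818). Of 18 genes of sugar and energy starvation, *BMY1*, a beta-amylase, was at 3.99, 5.35 and 8.53 CPM in 4h Mock and 27.7, 23.8 and 26.4 CPM in 2h Mock, 4.36-fold lower (edgeR adjusted p = 0.00637, or 0.0216). *DIN11*, a dark-induced oxygenase, was 3.205-fold higher (edgeR adjusted p = 0.0445, or 0.134), at 1365, 532 and 614 CPM in 4h Mock and 419, 134 and 230.2 CPM in 2h Mock.

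The gene model of *ChCUC1*, which the line was built to induce, was at 1.25, 3.4998 and 3.33 CPM in 4h Mock and 2.25, 4.40 and 3.29 CPM in 2h Mock (log2 fold change -0.31 ± 0.39, edgeR adjusted p = 0.622). Its level was low and the groups overlapped. The AGC kinases *WAG1* and *WAG2*, which set the polarity of PIN auxin carriers, were at 0.62, 2.04 and 1.67 CPM and 0.37, 1.59 and 0.87 CPM in 4h Mock, against 1.46, 1.75 and 1.47 CPM and 1.52, 4.26 and 4.23 CPM in 2h Mock. Neither was called (edgeR adjusted p = 0.916 and 0.143), and the groups overlapped for both. Of 10 boundary and meristem genes, only *PLT3*, an AP2 factor of shoot and root meristems, was called. It was 8.33-fold lower (edgeR adjusted p = 5.43e-04, or 0.00263), at 5.68, 6.24 and 2.33 CPM in 4h Mock and 12.97, 61.9 and 44.1 CPM in 2h Mock, and thus was low in 2h Mock replicate 1 as the root list was.

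Of 11 genes of auxin transport and PIN polarity, 4 were called lower and 0 higher (median log2 fold change -0.60). *ABCB19*, an auxin efflux transporter, was at 73.0, 79.7 and 67.9 CPM in 4h Mock and 103, 150.4 and 138 CPM in 2h Mock, 1.77-fold lower (edgeR adjusted p = 6.81e-04, or 0.00506 without 2h Mock replicate 3). *ABCB1* and *PIN4*, also auxin efflux carriers, were 1.52-fold and 1.79-fold lower. Both lost their calls without 2h Mock replicate 3 (edgeR adjusted p = 0.078 and 0.096), 2h Mock replicate 2 or 4h Mock replicate 3, and 1 of the 11 was called in each case. *PIN4* was at 50.6, 61.9 and 18.3 CPM in 4h Mock and 72.7, 80.7 and 80.3 CPM in 2h Mock, with 4h Mock replicate 3 the lowest of its group. In the auxin response list, 4 of 16 genes were called lower and 0 higher. *GH3.5*, which conjugates auxin to amino acids, was at 4.68, 6.24 and 4.27 CPM in 4h Mock and 11.8, 21.2 and 15.8 CPM in 2h Mock, 3.22-fold lower (edgeR adjusted p = 4.55e-04, or 0.00239). *IAA13*, a repressor of auxin response, was at 14.2, 12.98 and 16.7 CPM in 4h Mock and 25.7, 35.2 and 34.3 CPM in 2h Mock, 2.17-fold lower (edgeR adjusted p = 0.00547, or 0.0253). *LBD29*, a factor of lateral root formation in *A. thaliana*, was at 0, 0 and 0.33 CPM in 4h Mock and 1.24, 3.22 and 2.90 CPM in 2h Mock, and *GH3.9* was 2.54-fold lower (edgeR adjusted p = 0.0185, or 0.0548).

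In the root list 9 of 18 genes were called lower and 0 higher, with a median log2 fold change of -5.56, or of -3.84 with the 7 genes at 0 counts in 4h Mock set at their bound (3 counts over the group). *RHS13*, a cell wall protein named for its root hair expression, was at 0, 0 and 0.2 CPM in 4h Mock and 0.28, 18.1 and 11.9 CPM in 2h Mock (edgeR adjusted p = 0.0156, or 0.0401 without 2h Mock replicate 3). *IRT1*, the iron uptake transporter of the root epidermis, was at 0, 0 and 0.4 CPM in 4h Mock and 0, 12.3 and 5.85 CPM in 2h Mock (edgeR adjusted p = 0.0266, or 0.057). *EXPA18*, a root hair expansin, was at 0 counts in 4h Mock and at 0.056, 3.55 and 1.97 CPM in 2h Mock, at least 30.5-fold lower in 4h Mock by a floor of 3 counts over the group. All of these rested on 2h Mock replicates 2 and 3. The count of 9 became 2 without 2h Mock replicate 3, 1 without 2h Mock replicate 2, 1 without 4h Mock replicate 3, 3 and 4 without 4h Mock replicates 1 and 2, and 14 without 2h Mock replicate 1. *RHS15*, *LRX1*, *PRP3*, *COW1*, *GH9C1* and *RHS6*, the other called members, had the same pattern, at 0.45 CPM or less in each 4h Mock library and from 0 to 0.17 CPM in 2h Mock replicate 1.

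Of 23 xyloglucan enzymes and expansins, 6 were called lower and 0 higher (median log2 fold change -0.91). *XTH19*, a xyloglucan endotransglucosylase, differed from the rest in that 2h Mock replicate 1 was close to its group, at 23.0, 23.4 and 25.7 CPM in 4h Mock and 76.4, 95.1 and 87.0 CPM in 2h Mock, 3.59-fold lower (edgeR adjusted p = 2.52e-04, or 0.00139). The other 5, which include *EXPA18* of the root list and *XTR9* at 0, 0.064 and 0 CPM in 4h Mock and 0, 12.3 and 7.67 CPM in 2h Mock, were at 0.11 CPM or less in 2h Mock replicate 1. Without 4h Mock replicate 1, 4h Mock replicate 3 or 2h Mock replicate 2 only 1 of the 23 was called, and without 2h Mock replicate 3 or 4h Mock replicate 2 there were 2. Lone calls of the same kind were *ESM1* of the glucosinolate list, which steers myrosinase products, at 0.44, 1.40 and 0.87 CPM in 4h Mock and 1.18, 51.9 and 35.9 CPM in 2h Mock (edgeR adjusted p = 0.00404, or 0.0141), and the trypsin inhibitor *KTI1* of the seed list, at 1.37, 2.04 and 1.67 CPM in 4h Mock and 1.97, 13.4 and 9.73 CPM in 2h Mock. *KTI1* (edgeR adjusted p = 0.0171) was not called without 2h Mock replicate 3 (edgeR adjusted p = 0.0555) and kept its call in 2 of the 6 such fits.

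*PCNA1*, the sliding clamp of DNA replication, was at 16.7, 17.5 and 19.6 CPM in 4h Mock against 4.38, 4.36 and 4.38 CPM in 2h Mock, 4.10-fold higher (edgeR adjusted p = 5.72e-04, or 0.00453 without 2h Mock replicate 3). It was the only 1 of 31 replication and cell cycle genes that was called, and the median of that list was -0.09. *HIS4* and *HTR11*, histones H4 and H3, were at 22.1, 25.3 and 67.1 CPM and 10.2, 10.6 and 32.4 CPM in 4h Mock, with replicate 3 far above the other two, and at 25.05, 22.4 and 24.04 CPM and 9.43, 9.04 and 9.93 CPM in 2h Mock. No gene of the lists for rapid wound and touch response (25 genes, median log2 fold change 0.04), cytokinin (15, 0.33), gibberellin (10, -0.65), abscisic acid (18, 0.22), auxin synthesis (8, 0.26) or glutathione transferases and xenobiotic response (29, 0.71) was called. The wound list summed to 3745, 1456 and 1685 CPM in 4h Mock and 3183, 1360 and 1881 CPM in 2h Mock, again highest in replicate 1 of both. In the list of glutathione transferases 9 genes had all 4h Mock libraries above all 2h Mock libraries, as did 16.8% of all genes tested. *GSTU11*, a glutathione transferase, was at 264, 86.5 and 100.7 CPM in 4h Mock and 33.9, 11.2 and 18.8 CPM in 2h Mock (log2 fold change 2.82 ± 1.33, edgeR adjusted p = 0.143). A fit to the 12 Mock libraries alone called 9 of these 29 and 4 of the 15 cytokinin genes higher, against 6.31% of all genes in that fit. *ARR4*, a response regulator induced by cytokinin, was at 56.5, 37.2 and 56.9 CPM in 4h Mock and 18.3, 19.0 and 18.9 CPM in 2h Mock and missed the threshold (edgeR adjusted p = 0.0586), although its groups were well apart. Fitted to the 6 libraries alone it passed (edgeR adjusted p = 0.0199).

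The same interval was compared in the Dex seedlings. The 4h Dex and 2h Dex libraries, which share none with Mock, gave 1204 called genes (5.55%), 295 higher (1.36%) and 909 lower (4.19%). Of the genes called higher in Mock, 216 were called higher in Dex, 15.8% of the Mock list and 73.2% of the Dex list. Of those called lower in Mock, 725 were called lower in Dex, 39.6% of the Mock list and 79.8% of the Dex list. No gene was called in opposite directions. Over the genes called in Mock the median log2 fold change in Dex was 0.47 for those higher in Mock and -0.94 for those lower in Mock. The root list had 8 of 18 genes called lower in Dex as well (median -3.94), and the photosynthesis list had 6 of 17.

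The difference of the changes, Mock minus Dex, was called for 0 of 21689 genes by edgeR (907 at an unadjusted p under 0.05, smallest adjusted p 0.369). DESeq2 called 1, CARHR046400 (difference 1.40 ± 0.26 on the log2 scale, DESeq2 adjusted p = 0.00276), and edgeR without 2h Dex replicate 2 called CARHR046400 and CARHR143450, genes chosen after their values were seen. *NPC4* had the smallest p-value for the difference, with a log2 fold change of -3.76 in Mock and -2.49 in Dex (difference -1.26 ± 0.23, edgeR adjusted p = 0.369). Among genes with a counterpart, the differences with the next smallest p-values were those of CARHR085840 (-1.63 in Mock and -0.56 in Dex), *ROH1* (0.98 and -2.23), *ATVAMP712* (-2.06 and -0.33), *ANAC038* (-4.91 and -2.61) and CARHR199110 (-1.80 and -0.70). None of these differences was called. For the unfolded protein genes the difference was wide in error, as for *BIP3* (2.79 ± 1.41).

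**Figure D4:**
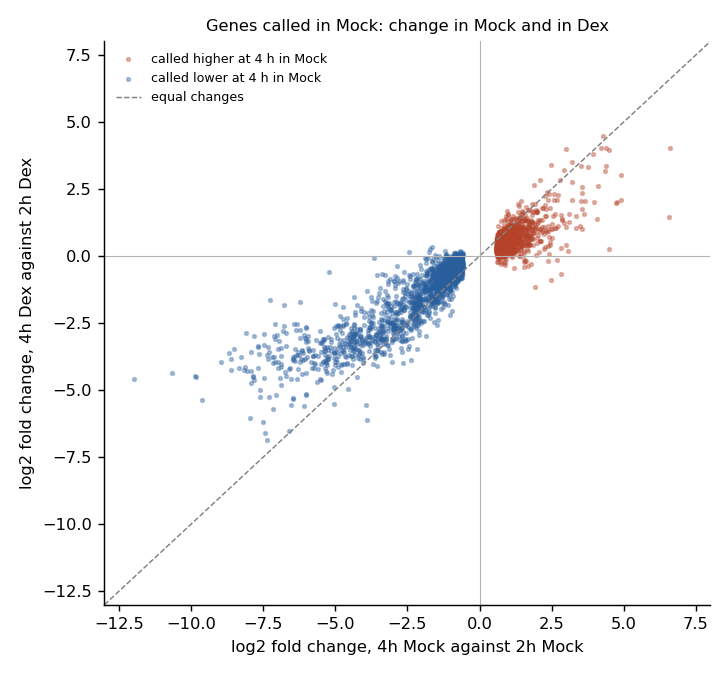
Each point is 1 of 3195 genes called in Mock, with its log2 fold change from 4h Mock against 2h Mock on the x axis and from 4h Dex against 2h Dex on the y axis; the dashed line marks equal changes. Most points lie on the same side of 0 on both axes, 97.8% of them against 78.0% of all genes tested, and the median change in Dex is 0.47 for genes higher in Mock and -0.94 for genes lower in Mock.

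The later Mock libraries place these genes in time, as a description without a test. *LHCB2.4* was at 608, 558 and 559 CPM at 2 h, 169.8, 149.8 and 322 CPM at 4 h, 42.4, 47.3 and 43.0 CPM at 6 h and 7.16, 6.14 and 6.18 CPM at 8 h, and thus lower at each later time. *NPC4*, already low at 4 h, was at 2.3998, 2.00 and 2.71 CPM at 6 h and 2.23, 2.31 and 2.03 CPM at 8 h. *ST2A* was at 2.08, 5.30 and 2.397 CPM at 6 h and 16.3, 7.25 and 12.1 CPM at 8 h, so that its lowest levels were at 4 and 6 h. *COR27* was at 45.5, 33.3 and 40.8 CPM at 6 h and 37.5, 43.0 and 37.0 CPM at 8 h, and *BIP3* at 154, 112 and 121 CPM at 6 h and 122, 138 and 129 CPM at 8 h, both far above their 2 h levels. *PGK* was at 2105, 1786 and 1346 CPM at 6 h and 2307, 2083 and 2148 CPM at 8 h. *RHS13* was at 0, 0.45 and 0.1 CPM at 6 h and 0, 0 and 0 CPM at 8 h, near 0 as in 4h Mock.

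**Figure D5:**
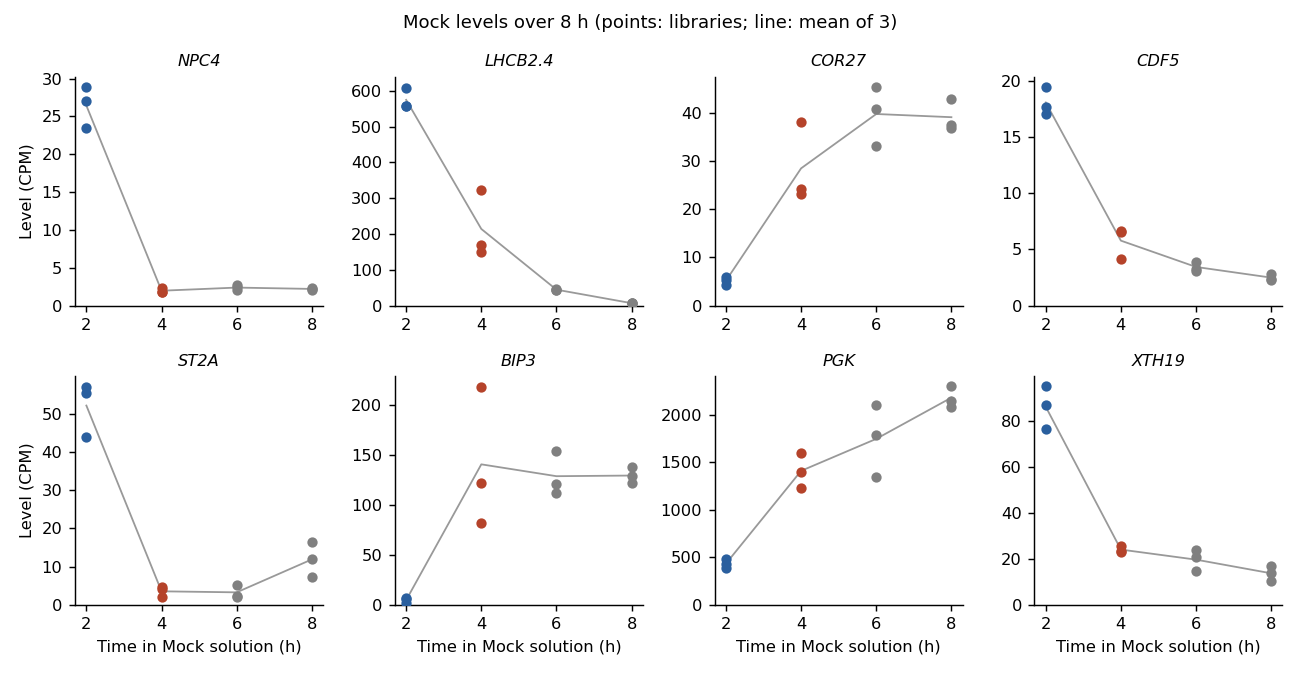
Levels in CPM of 8 genes in the Mock libraries at 2, 4, 6 and 8 h, with a point for each library and a line through the means of 3. *NPC4* and *ST2A* reached low levels by 4 h, and *ST2A* was higher again at 8 h. *LHCB2.4*, *CDF5* and *XTH19* were lower at 8 h than at 4 h, and *COR27*, *BIP3* and *PGK* stayed high after 4 h.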

How the data were processed

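Poly(A) RNA libraries were made by the authors with a directional kit, and the submitters' processing notes name STAR 2.4.2a, HTSeq 0.5.4p1 and DESeq. Build, annotation and strand setting of the counting were not given in the sources used here. The deposited files hold whole-number counts of reads per gene, which the authors did not normalize. Rows for reads outside genes were left out of library sizes and tests, and 0 other columns of per-sample values were found.

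Counts of all 24 libraries were fitted in 1 model with edgeR 4.0.16 (R 4.3.3, limma 3.58.1): TMM scaling, a filterByExpr minimum count of 10, a robust quasi-likelihood fit with 1 coefficient per group and the contrast 4h Mock minus 2h Mock. The other groups thus share in the estimate of the spread. Genes were called at a Benjamini-Hochberg adjusted p under 0.05 over all genes tested and a fold over 1.5. CPM values use TMM-scaled library sizes. Principal components were taken from log2 CPM with a prior count of 2. The difference of changes was the Mock contrast minus the Dex contrast.

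*A. thaliana* counterparts came from 4021 identifier pairs in the study's supplementary tables, 1846 of them only in its expression tables. Named genes were *ChCUC1*, *WAG1* and *WAG2*, with those taken by the rules that follow. Per direction, the 12 genes with a counterpart and the 2 without that had the smallest p were taken. These were drawn from genes whose groups did not overlap and whose higher mean was at least 5 CPM. Each list gave up to 4 genes of smallest p, with all clock genes. For the Mock and Dex difference, the 6 genes of smallest p among those with a counterpart were taken. Further called list members, markers and genes named as such were added after their values were seen. Values of 1 list member are not reported here. Members and lists were chosen with earlier results of these data known.

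Alternatives were DESeq2 size factors, no filter, DESeq2 1.42.0, the 12 or 6 Mock libraries alone, a replicate block, no fold limit and each library left out in turn. Leaving out the pair of libraries that stand apart, and the test of each library as a weighted sum of the other two of its group, were chosen after seeing the data. For 3 libraries against 3, a permutation test of 1 gene cannot go below p = 0.10 (two-sided), so none was used. Depth limits precision for genes of few counts, and a floor of 3 counts covers counting error only.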

Additional observations from a re-analysis of the deposited data

Results flagged for a closer look

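Reads outside annotated genes, which enter no comparison of the report, made up 12.1% of reads on average in 4h Mock (9.73 to 15.8% over 3 libraries), against 8.15% in 2h Mock (7.85 to 8.31%). All 4h Mock libraries lay above all 2h Mock libraries. This share moved with the comparison, and its part in the results was not tested.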

How the results depend on the processing

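The count of 3195 called genes fell to 729 (330 higher, 399 lower) when the 6 libraries were fitted alone. The 12 Mock libraries alone called 1322 higher and 1170 lower, so that higher calls were the majority there. With each of the 6 libraries left out in turn, between 1555 and 4185 genes were called, 563 to 1861 higher and 894 to 2324 lower, lowest without 2h Mock replicate 2 in all and lower calls and without 4h Mock replicate 3 in higher calls. Without both 4h Mock replicate 3 and 2h Mock replicate 1, 2116 were called (605 higher). The other scaling gave 3183, no filter 3062, DESeq2 3632 and no fold limit 3948. The difference between Mock and Dex was called for 1 gene by DESeq2, and for 0 to 2 genes with single libraries left out. Fewer samples were fitted in most of these, and beyond that the cause was not tested.

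The main fit did not pair samples by replicate number. Same-numbered samples correlated at 0.258, 0.224 and 0.042 in their deviations, against -0.284 to 0.093 for samples of unlike number. Whether the numbers mark a shared replicate effect was not tested. A replicate block called 4483 genes with 24 libraries, 3039 with 12 (1555 higher, 1484 lower) and 1143 (507 higher, 636 lower) with 6.

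Of 90 named genes called, 65 were still called without 2h Mock replicate 3 and 54 whichever of the 6 libraries was left out. Of genes not called, 4 changed sign with 1 library left out, where the log2 fold change ran from -0.44 to 0.24 for *WAG1*, from -0.53 to 0.039 for *ChCUC1* (-0.70 with both 4h Mock replicate 3 and 2h Mock replicate 1 left out) and from -0.043 to 0.62 for *COR28* (each turned without 4h Mock replicate 1), and from -0.021 to 0.95 for *HIS4* (turned without 4h Mock replicate 3).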
